A study of Mus musculus with 4 samples.

Results

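The 10 genes followed here define or arm myeloid-derived suppressor cells, the immature neutrophils and monocytes that accumulate in tumour-bearing animals. They are the enzyme genes Arg1, Arg2, Nos2, Ptgs2 and Cybb, the cytokine genes Il10 and Tgfb1, and the surface marker genes Itgam, Ly6g and Ly6c2. They were chosen by gene symbol for these roles, and all 10 are among the 21499 distinct symbols of the files. The data are RNA sequencing of whole lung tissue from 4 mice of strain C57B/L6, 2 wild type (WT) and 2 lacking lactoferrin (Lf-/-), with 1 library per mouse. All were given 200000 B16-F10 mouse melanoma cells by tail vein at 8 weeks of age, so the controls carry metastases too. Lung from around the colonies was taken 3 weeks later. The labels give 10 mice per genotype and call them male, and how the Lf-/- line was made is not given in the sources used here. The comparison asks how the tissue next to metastases differs when lactoferrin is missing.

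Suppressor cells restrain T cells by several routes, and the genes above belong to those routes. Arginase depletes arginine, inducible nitric oxide synthase turns arginine into nitric oxide, and the phagocyte oxidase makes superoxide. Prostaglandin E2, interleukin 10 and TGF-beta act as soluble suppressors. In mice these cells carry CD11b, the product of Itgam, with Ly6G on the granulocytic kind and high Ly6C on the monocytic kind. No one of these genes is confined to suppressor cells in lung. Alveolar macrophages, ordinary neutrophils, monocytes, natural killer cells and, for some genes, epithelium and endothelium use them as well.

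Some libraries stood apart or went against their labels. The targeted gene, Ltf, had an FPKM of 79.2 and 7.32 in WT mice 1 and 2 and of 0.104 and 0.533 in Lf-/- mice 1 and 2. FPKM scales the fragments of a gene to transcript length and to all mapped fragments of the library. All 4 mice are labelled male, yet the 4 Y-linked genes examined summed to 0.0426 and 0 in the WT mice and to 44.1 and 39.0 in the Lf-/- mice. The presence of Y-linked transcripts and genotype therefore cannot be told apart. The tissue is labelled free of tumour cells, and 10 melanocyte markers summed to 125 in WT mouse 2 against 6.41 to 13.6 in the other libraries. Scgb1a1, the main club cell secretoglobin, was listed at 0 in Lf-/- mouse 2 and at 60454 to 72936 in the others. All other genes summed to 317976 in Lf-/- mouse 2, against 315089 to 327216 in the others. Whether a listed 0 means no transcript or a missing value is not given, also for Cyba and Irf8, at 0 in all 4 libraries. In Lf-/- mouse 2, 12 alveolar macrophage markers summed to 182, against 523 to 741 in the others. Car4, also counted here as an endothelial marker, made up 98.0 of the 182 and had 72.4 to 81.5 in the others. Lung identity was clear in every library, with the surfactant gene Sftpc at 17185 or more. Read totals are unknown, so the depth behind each value is too.

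Sequence decides how far some of these values can be read. Ly6c2 and its neighbour Ly6c1, both on the minus strand of chromosome 15 in GRCm38, have coding sequences of 393 bases that differ at 9 positions, an identity of 97.7%. The first 300 coding bases of each are shown 5′ to 3′ because this likeness bears on the Ly6c2 values, with the 7 differing bases among them in capitals.
Ly6c1: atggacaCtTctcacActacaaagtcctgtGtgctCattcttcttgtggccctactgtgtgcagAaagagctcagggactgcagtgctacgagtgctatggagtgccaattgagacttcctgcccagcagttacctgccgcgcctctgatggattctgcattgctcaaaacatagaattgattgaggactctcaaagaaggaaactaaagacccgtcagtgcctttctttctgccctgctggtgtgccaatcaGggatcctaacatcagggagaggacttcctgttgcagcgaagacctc
Ly6c2: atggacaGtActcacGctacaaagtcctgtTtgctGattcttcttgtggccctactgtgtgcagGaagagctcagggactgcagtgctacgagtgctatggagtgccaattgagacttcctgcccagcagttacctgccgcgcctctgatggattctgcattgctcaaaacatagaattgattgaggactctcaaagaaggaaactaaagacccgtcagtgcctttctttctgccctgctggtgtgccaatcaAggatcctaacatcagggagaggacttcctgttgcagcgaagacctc
The differences cluster near the 5′ end, and a long central stretch of both is letter for letter the same. Of all 50-base windows of the Ly6c2 transcripts, 31.2% occur unchanged in another gene, nearly all in Ly6c1, and 14.9% of 100-base windows do. Itgam shares more, 68.5% of its 50-base windows, with the overlapping gene model Gm49368 on the same strand. Gm49368 is not a symbol in the files, so whether any reads were divided with it is not known. Arg2 shares 21.2%, mostly with Vti1b, which overlaps its 3′ end on the opposite strand. Ly6g shares 0.448%, and Arg1, Nos2, Ptgs2, Cybb, Il10 and Tgfb1 share none. How the authors assigned shared reads, and whether strand was used, is not given in the sources used here. The levels of Ly6c2 and Arg2 are therefore uncertain, and the bearing of the overlap with Gm49368 on the Itgam level is unknown.

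Itgam and Cybb are textbook targets of the myeloid factor PU.1, which reads a purine-rich box. Their tabulated RefSeq promoters (GRCm38.p6, 250 bases before to 50 after the start, 5′ to 3′ on the gene's strand) are shown with GAGGAA and its reverse complement TTCCTC in capitals. The window of Itgam is chr7:128062390-128062689, plus strand, and that of Cybb is chrX:9469275-9469574, minus strand.
Itgam: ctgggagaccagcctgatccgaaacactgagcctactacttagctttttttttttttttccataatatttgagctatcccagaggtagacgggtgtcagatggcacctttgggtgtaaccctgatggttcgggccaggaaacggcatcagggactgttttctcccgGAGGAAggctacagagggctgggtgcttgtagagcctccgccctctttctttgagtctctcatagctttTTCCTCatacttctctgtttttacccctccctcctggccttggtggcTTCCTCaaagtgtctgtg
Cybb: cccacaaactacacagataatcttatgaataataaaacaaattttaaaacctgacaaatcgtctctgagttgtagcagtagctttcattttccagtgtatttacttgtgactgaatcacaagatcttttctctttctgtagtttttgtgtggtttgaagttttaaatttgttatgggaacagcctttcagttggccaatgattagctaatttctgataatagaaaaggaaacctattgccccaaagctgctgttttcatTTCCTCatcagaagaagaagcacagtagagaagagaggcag
The letters occur 3 times in the Itgam window, starting at bases -84, -15 and 33 from the start, and once in the Cybb window, starting at base 10. Promoters were tabulated for 6 of the 10 genes, and 5 of the 6 held the motif on either strand in at least 1 window (Tgfb1 did not). Counted in the same way, by gene, 31.3% of 27025 genes did, and counted by window 28.3% of all 32851 tabulated promoters of this length did. Such a match is a description of the letters and not of a bound site. Itgam and Cybb lay lowest in Lf-/- mouse 2, as did Arg1, and any part of PU.1 in their levels was not tested.

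In order of mean level the genes were Tgfb1, Cybb, Ly6c2, Itgam, Arg2, Ptgs2, Arg1, Nos2, Ly6g and Il10, which was nearly absent. Tgfb1 lay between an FPKM of 26.1 and 33.9 over the 4 libraries, Ly6c2 between 14.3 and 17.9, and Ptgs2 between 4.02 and 4.45. Cybb had by far the widest range, 4.38 to 36.6. Itgam lay between 4.49 and 8.29 and Arg2 between 3.37 and 7.97. The least abundant were Arg1 (0.719 to 1.96), Nos2 (1.14 to 1.61), Ly6g (0.605 to 1.57) and Il10 (0 to 0.165). Ranges of neighbours in the order of means overlapped, except that Ly6c2 lay wholly above Itgam, Ptgs2 above Arg1, and Ly6g above Il10.

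**Figure D1:**
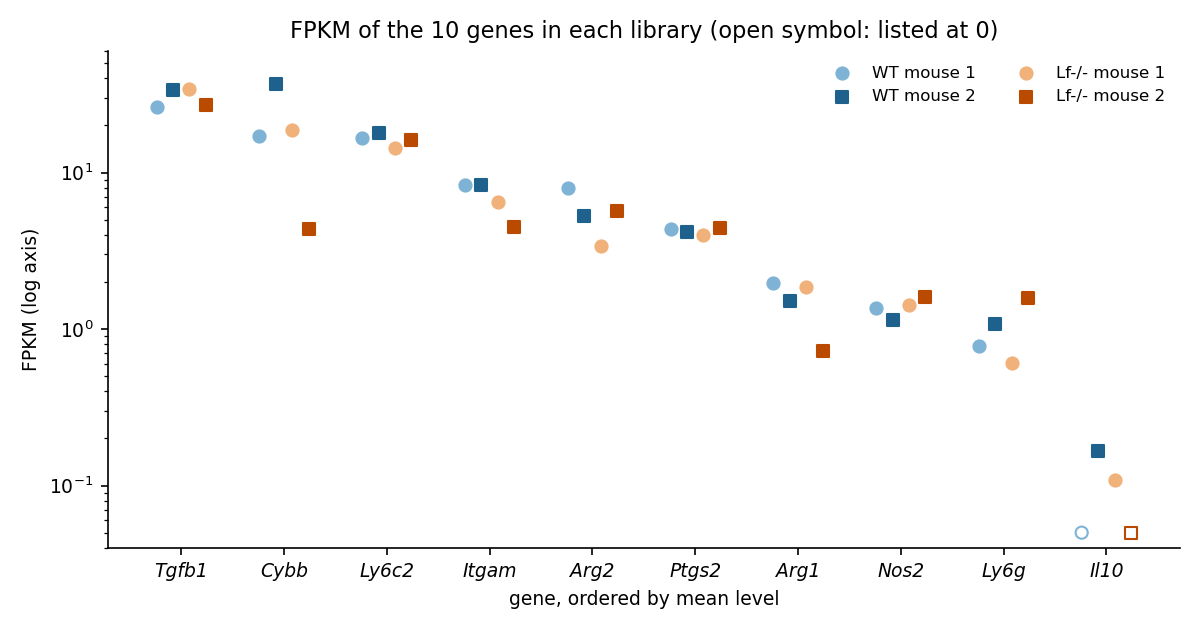
FPKM (log axis) of the 10 genes, ordered by mean level, with 1 point per library: blue for the 2 WT mice and orange for the 2 Lf-/- mice, circles for mouse 1 and squares for mouse 2. Open symbols at the foot mark a value listed at 0; the Cybb point of Lf-/- mouse 2, at 4.38, lies far below its other 3.

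None of the genes differed between genotypes past the threshold. Genotypes were compared on log2(FPKM + 1) with limma, with Benjamini-Hochberg adjustment over the 12573 genes that reached an FPKM of 1 in 2 or more libraries. Fold changes of genes near 0 come out too small on this scale. Of the 10 genes 9 were tested and Il10 was too low. At an adjusted p under 0.05, 0 of the 9 passed, against 0.0239% of all genes tested (3 genes, 2 of them Y-linked). The targeted gene, Ltf, did not pass either (log2 difference -4.31, limma adjusted p = 0.89). Not passing is therefore no sign that a gene was unchanged. At an unadjusted p under 0.05, 1 of the 9 was lower in Lf-/- mice (Itgam) and 0 were higher, against 2.56% and 2.55% of all genes. That is 322 lower and 320 higher genes in all, a balance that became 251 and 432 after quantile normalization. In direction, 6 of the 9 lay lower and 3 higher, with a median log2 difference of -0.17, against -0.005 over all genes. Both Lf-/- libraries lay below both WT libraries for Itgam and Ly6c2, and above both for Nos2. Over all genes 17.5% and 18.5% were ordered in these ways, so 2 and 1 of 9 are near the background. With 2 mice against 2, an exact two-sided permutation test cannot go below 0.3333, so none is given.

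**Figure D2:**
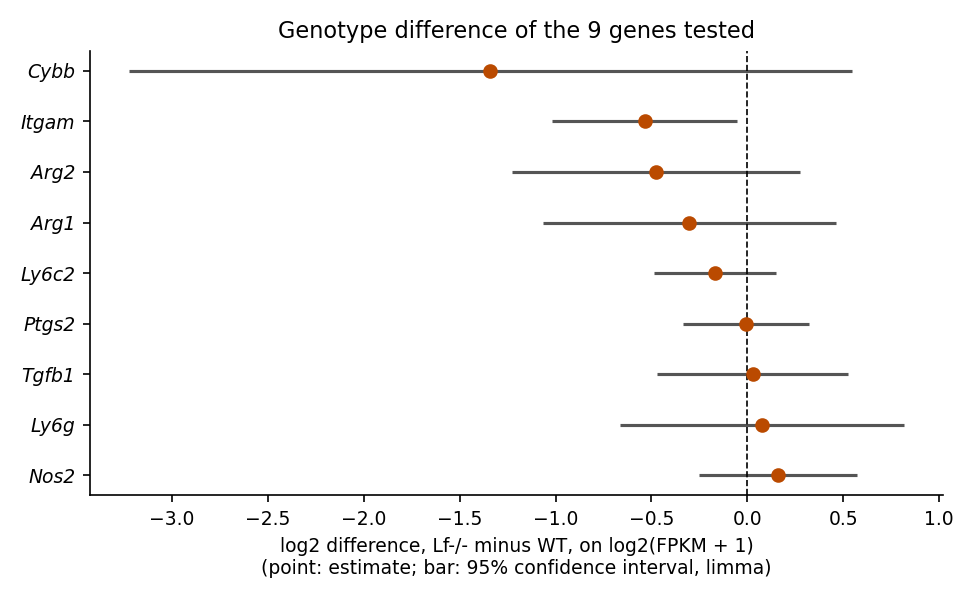
Log2 difference (Lf-/- minus WT, on log2(FPKM + 1)) of the 9 genes tested, each as limma's estimate with its 95% confidence interval. The interval of Cybb runs from -3.22 to 0.54, and that of Ptgs2 from -0.34 to 0.32; that of Itgam, -1.02 to -0.05, is the one that leaves out 0, before adjustment for the number of genes.

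Arginase genes were low to moderate in this tissue. Arg1, the cytosolic arginase of alternatively activated macrophages and suppressor cells (chromosome 10, 24915221 to 24927484, GRCm38), had an FPKM of 1.96 and 1.52 in WT mice 1 and 2 and of 1.85 and 0.719 in Lf-/- mice 1 and 2. The other libraries lay close together and Lf-/- mouse 2 lay lower, so the groups overlapped. The log2 difference was -0.30 (SE 0.29, 95% interval -1.07 to 0.46, limma adjusted p = 0.911), and 0.06 without Lf-/- mouse 2. Arg2, the mitochondrial arginase (chromosome 12, 79130777 to 79156301), had 7.97 and 5.27 in the WT mice and 3.37 and 5.65 in the Lf-/- mice. The highest value was in WT mouse 1 and the lowest in Lf-/- mouse 1, and the groups overlapped (log2 difference -0.48, SE 0.28, adjusted p = 0.89). Without Lf-/- mouse 1 the difference was -0.18. Arg2 exceeded Arg1 per length in each library, by 4.06, 3.48, 1.82 and 7.85 times in the same order of mice.

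Nos2, the inducible nitric oxide synthase (chromosome 11, 78920787 to 78960254), had 1.37 and 1.14 in the WT mice and 1.42 and 1.61 in the Lf-/- mice. Both Lf-/- mice lay above both WT mice, by a narrow margin over WT mouse 1. The ratio of group means was 1.21, less than a doubling, and the log2 difference of 0.16 (SE 0.16, 95% interval -0.25 to 0.57) did not pass (limma adjusted p = 0.913). Nos3, the endothelial synthase, stood at 6.92 and 9.45 in WT and 7.96 and 9.08 in Lf-/- mice, which is 5.06 to 8.31 times the level of Nos2. Arg1 and Nos2 draw on the same substrate. Their ratio was 1.44 and 1.33 in the WT mice, 1.31 in Lf-/- mouse 1 and 0.447 in Lf-/- mouse 2, so the last library alone had less Arg1 than Nos2.

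Around them, 14 of 18 listed genes of arginine transport, arginine recycling, polyamine synthesis and nitric oxide cofactor synthesis were tested. Of these 8 lay lower and 6 higher (median -0.12), with 6 lower and 3 higher without overlap (against 17.5% and 18.5% of all genes). By limma 0 passed, with 2 lower and 1 higher at an unadjusted p under 0.05, against 2.56% and 2.55% of all genes. Ddah2, which degrades methylarginine inhibitors of nitric oxide synthase, measured 45.9 and 37.8 in WT and 64.5 and 69.9 in Lf-/- mice (log2 difference 0.68, adjusted p = 0.89). Azin1, an antizyme inhibitor that protects ornithine decarboxylase, had 36.7 and 32.5 against 27.4 and 24.3. Gch1, the first enzyme of tetrahydrobiopterin synthesis, had 8.19 and 8.41 against 6.49 and 6.61. The arginine transporter gene Slc7a1 stood at 4.04 and 4.08 against 3.09 and 3.33. Slc7a2, the inducible arginine transporter of macrophages, had 7.02 and 6.73 against 6.15 and 4.25. Ass1, which rebuilds arginine from citrulline, was too low to be tested, at 0.1 to 0.269.

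Ptgs2, the inducible cyclooxygenase COX-2 (chromosome 1, 150100031 to 150108227), was the steadiest of the 10 genes. It had 4.37 and 4.15 in the WT mice and 4.02 and 4.45 in the Lf-/- mice, a range of 1.11 times over all 4. The groups overlapped fully, and the 95% interval of the log2 difference, -0.34 to 0.32, leaves no room for a doubling or a halving on this scale (limma adjusted p = 0.996). Ptgs1, the constitutive cyclooxygenase, was more abundant and did not overlap, with 48.5 and 33.9 in WT and 27.4 and 23.1 in Lf-/- mice (log2 difference -0.67, SE 0.21, adjusted p = 0.89). Ptges, which makes prostaglandin E2 from the cyclooxygenase product, had 13.5 and 12.5 against 10.1 and 10.7. Ptgis, the prostacyclin synthase of vessels, had 39.2 and 36.9 against 50.6 and 43.1. Tbxas1, the thromboxane synthase of platelets and macrophages, had 3.66 and 3.93 against 3.32 and 1.22. Of 13 tested genes of prostaglandin synthesis and reception 7 lay lower and 6 higher (median -0.03), 5 lower and 1 higher without overlap (against 17.5% and 18.5% of all genes). By limma 0 passed, with 2 lower and 0 higher at an unadjusted p under 0.05, against 2.56% and 2.55% of all genes.

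Cybb, the catalytic subunit of the phagocyte NADPH oxidase (chromosome X, 9435252 to 9487771), varied most. It had 17.0 and 36.6 in WT mice 1 and 2 and 18.6 and 4.38 in Lf-/- mice 1 and 2. WT mouse 1 and Lf-/- mouse 1 were alike, WT mouse 2 was high and Lf-/- mouse 2 low, so the groups overlapped. The 2 WT mice differed by 2.15 times and the 2 Lf-/- mice by 4.26 times, against 2.33 times between the group means. The log2 difference was -1.34 (SE 0.71, 95% interval -3.22 to 0.54, limma adjusted p = 0.89). It was -0.41 without Lf-/- mouse 2 and -0.81 without WT mouse 2. Cybb is X-linked, and the difference in Y-linked transcripts falls on this comparison as on that of every gene. Any part of it in the Cybb values was not tested. Melanocyte markers were highest in WT mouse 2 and alveolar macrophage markers lowest in Lf-/- mouse 2, the same libraries in which Cybb was highest and lowest, and their part in this was not tested.

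Several other oxidase genes had the same library lowest. Ncf1, the p47phox organizer, measured 14.1 and 17.8 in WT and 13.9 and 7.33 in Lf-/- mice. Ncf4, p40phox, had 9.12 and 10.3 against 8.80 and 7.18. Rac2, the haematopoietic GTPase of the complex, had 25.2 and 28.0 against 24.6 and 16.4, whereas the ubiquitous Rac1 had 91.2 and 89.6 against 102 and 108. Cyba, the p22phox partner of Cybb, was listed at 0 in all 4 libraries, so the membrane heterodimer cannot be compared. The ratio of Cybb to Ncf1 was 1.21 and 2.06 in WT and 1.35 and 0.597 in Lf-/- mice, so Cybb moved further than Ncf1 between libraries. Of 9 tested oxidase genes other than Cybb 7 lay lower and 2 higher (median -0.35), and 6 were lowest in Lf-/- mouse 2, as were 34.4% of all genes tested. By limma 0 passed, and 0 had an unadjusted p under 0.05.

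**Figure D3:**
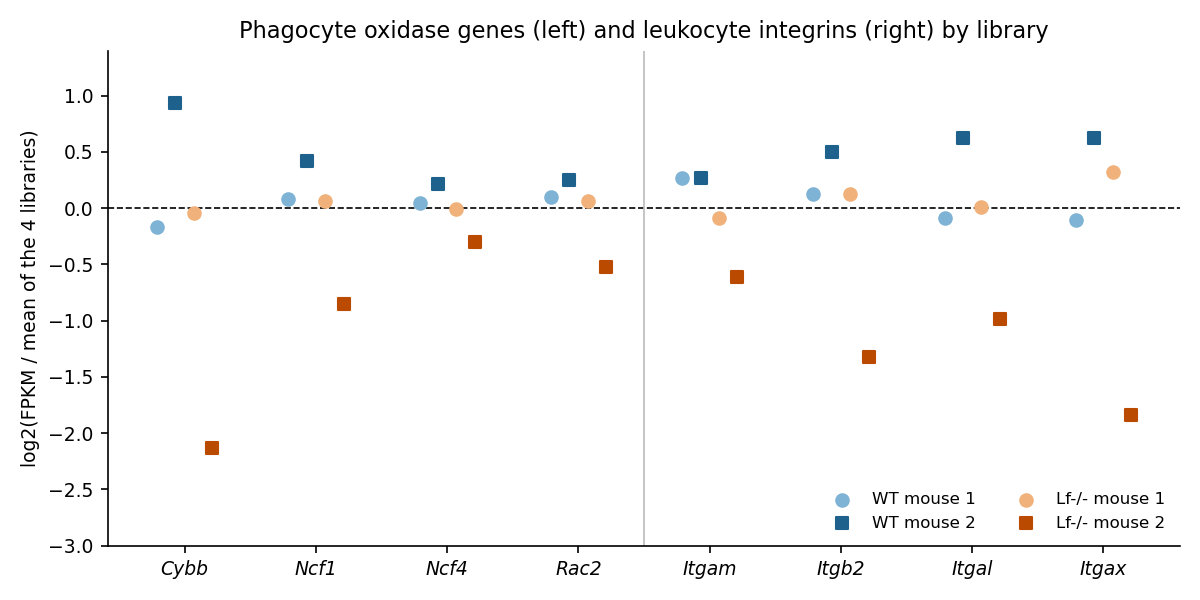
Log2 of FPKM over the mean of the 4 libraries for phagocyte oxidase genes (left of the line) and leukocyte integrin genes (right), 1 point per library. The genes were chosen for plotting after their values were seen, and Lf-/- mouse 2 is lowest for all 8; in the full lists it is lowest for 6 of 9 oxidase genes other than Cybb and 4 of 6 integrin and ligand genes, against 34.4% of all genes.

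For the cytokine genes no difference was called, since Il10 was too low to be tested and Tgfb1 did not pass. Il10, which restrains macrophage and T cell activation, was listed at 0 in WT mouse 1, 0.165 in WT mouse 2, 0.109 in Lf-/- mouse 1 and 0 in Lf-/- mouse 2 (chromosome 1, 131019845 to 131024974). With 1 mouse at 0 in each group and the others at 0.165 or less, no fold is given, and a difference would not be detectable at this level. Its receptor chains were expressed. The ligand-binding chain Il10ra of leukocytes had 5.91 and 9.90 in WT and 7.90 and 4.32 in Lf-/- mice, and the widely used chain Il10rb had 30.0 and 31.5 against 29.2 and 37.0. Stat3, the factor downstream of the receptor, had 39.5 and 35.97 against 32.2 and 33.2, and Hmox1, a haem oxygenase that interleukin 10 can induce, had 20.9 and 25.3 against 19.7 and 18.1. Tyk2, a kinase of the receptor, had 10.97 and 10.9 against 10.2 and 9.29, and Etv3, a transcriptional repressor that interleukin 10 induces in macrophages, had 8.38 and 9.15 against 8.01 and 7.51. Of 12 tested genes of this pathway 10 lay lower and 2 higher (median -0.12), 4 lower and 0 higher with no overlap (against 17.5% and 18.5% of all genes). By limma 0 passed and 0 had an unadjusted p under 0.05.

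Tgfb1, whose product is secreted in latent form and suppresses T cells once activated (chromosome 7, 25687002 to 25705077), had 26.1 and 33.8 in the WT mice and 33.9 and 27.01 in the Lf-/- mice. Each group held 1 lower and 1 higher mouse, and the group means of 29.9 ± 5.38 and 30.5 ± 4.91 (SD, n = 2) were closer than the mice within a group. The log2 difference was 0.03 (95% interval -0.47 to 0.52, limma adjusted p = 0.99). Tgfb1 made up 48.3% of the summed level of the 3 ligand genes in WT mouse 1, and 58.4% to 59.2% in the other libraries. Tgfb3 had 22.7 and 17.6 in WT and 17.9 and 13.5 in Lf-/- mice, and Tgfb2 had 5.31 and 5.72 against 6.32 and 5.67. The receptor gene Tgfbr2 was level, at 84.9 and 89.2 against 86.8 and 88.0, and Tgfbr1 had 10.9 and 12.8 against 11.3 and 8.19. Of target genes, Skil, a feedback repressor of SMAD signalling, had 10.00 and 13.1 against 9.35 and 7.75. Lrrc32, which holds latent TGF-beta on the cell surface, had 17.5 and 24.5 against 15.9 and 17.1. Of 26 tested genes of this pathway 15 lay lower and 11 higher (median -0.03), 5 lower and 3 higher without overlap (against 17.5% and 18.5% of all genes), and by limma 0 passed and 0 had an unadjusted p under 0.05.

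Itgam was the member with the smallest p. It encodes the alpha chain of CD11b/CD18, the complement receptor and adhesion integrin of neutrophils, monocytes, macrophages and natural killer cells (chromosome 7, 128062640 to 128118491). The summed FPKM was 8.26 and 8.29 in WT mice 1 and 2 and 6.46 and 4.49 in Lf-/- mice 1 and 2. Both Lf-/- mice lay below both WT mice, and the WT mice lay almost on top of each other. The WT mean was 1.51 times the Lf-/- mean. The log2 difference was -0.54 (SE 0.18), with an unadjusted p of 0.0358 and an adjusted p of 0.89 by limma. It was -0.31 without Lf-/- mouse 2 and -0.76 without Lf-/- mouse 1. The unadjusted p by limma was 0.0785 with no filter on low values, 0.111 without WT mouse 1, 0.114 without WT mouse 2 and 0.116 without Lf-/- mouse 2. The symbol has 2 entries in each file, which were summed. The larger entry had 5.92 and 6.26 in WT and 4.92 and 4.09 in Lf-/- mice, a WT to Lf-/- ratio of 1.35, and the smaller had 2.34 and 2.02 against 1.55 and 0.403, a ratio of 2.24. The groups did not overlap in either entry, and which transcripts each stands for is not given in the sources used here. In bulk tissue, fewer cells of a type and less RNA per cell cannot be told apart.

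The partner chain and the other tested leukocyte integrin chains were lowest in the same library, and the ligand genes were not. Itgb2, the beta chain CD18 that all leukocyte integrins of this group share, had 40.2 and 52.0 in WT and 40.1 and 14.7 in Lf-/- mice. Itgax, the CD11c chain of alveolar macrophages and dendritic cells, had 8.49 and 14.1 against 11.4 and 2.55, and Itgal, the CD11a chain of lymphocytes, had 8.70 and 14.3 against 9.33 and 4.67. Icam2, an endothelial ligand of CD11a, had 77.7 and 75.3 against 88.2 and 91.2. Itgam per Itgb2 was 0.206 and 0.159 in WT and 0.161 and 0.306 in Lf-/- mice, so in Lf-/- mouse 2 the alpha chain was lower by less than the beta chain. Of 6 tested integrin and ligand genes 4 lay lower and 2 higher (median -0.40). By limma 0 passed and 0 had an unadjusted p under 0.05.

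The markers of the granulocytic and monocytic kinds gave no difference past the threshold. Ly6g, on neutrophils (chromosome 15, 75155240 to 75159126), had 0.782 and 1.08 in WT and 0.605 and 1.57 in Lf-/- mice. The Lf-/- mice were the lowest and the highest of the 4, and differed by 2.6 times, so the groups overlapped (log2 difference 0.08, SE 0.28, limma adjusted p = 0.981). The difference was -0.26 without Lf-/- mouse 2 and 0.42 without Lf-/- mouse 1. Ly6c2, on inflammatory monocytes (chromosome 15, 75108158 to 75111970), had 16.6 and 17.9 against 14.3 and 16.1. Both Lf-/- mice lay below both WT mice, although Lf-/- mouse 2 lay only just below WT mouse 1, and the WT mean was 1.13 times the Lf-/- mean (log2 difference -0.17, SE 0.12, 95% interval -0.49 to 0.15, adjusted p = 0.892). The ratio of Ly6c2 to Ly6g was 21.2 and 16.5 in WT and 23.7 and 10.2 in Lf-/- mice. Ly6g was low and Ly6c2 shares sequence with Ly6c1, so this ratio is not a measure of monocytic against granulocytic cells.

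Ly6c1, which in lung is known from endothelium and whose sequence is set against Ly6c2 above, was far more abundant. It had 104 and 118 in WT and 87.3 and 165 in Lf-/- mice, which is 6.09 to 6.59 times the level of Ly6c2 in 3 libraries and 10.3 times in Lf-/- mouse 2. How many Ly6c1 reads were counted as Ly6c2 was not tested. Among 11 tested genes of the Ly6 family 5 lay lower and 6 higher (median 0.02). Ly6i, a neighbour of Ly6c2 known from myeloid cells, had 1.61 and 3.15 in WT and 0.735 and 0.662 in Lf-/- mice (log2 difference -0.95, SE 0.26, limma adjusted p = 0.89). Gpihbp1, which holds lipoprotein lipase on capillaries, had 34.7 and 47.1 against 51.9 and 51.0. Ly6k had 1.69 and 1.41 against 2.73 and 1.82, and Ly6g6c, of the separate cluster in the major histocompatibility complex, 0.899 and 0.649 against 1.59 and 1.29. Of the 11, by limma 0 passed, with 1 lower and 0 higher at an unadjusted p under 0.05, against 2.56% and 2.55% of all genes.

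Marker lists of the cell types that carry these genes moved between libraries, and their part in the values above was not tested. Neutrophil markers other than Ly6g, 13 in all, summed to 907 and 698 FPKM in WT and to 641 and 1561 in Lf-/- mice. Of the 13, 5 lay lower and 8 higher in Lf-/- mice by log2 difference. Lf-/- mouse 2 was highest for 8 of the 13, against 23.8% of all genes tested, and for Ly6g too. S100a8 and S100a9 carry most of these sums, and the 11 other markers summed to 249 and 213 in WT and to 200.5 and 269 in Lf-/- mice. In Lf-/- mouse 2, S100a8, an alarmin of neutrophils, had 447 against 180 to 240 elsewhere. Cxcr2, a chemokine receptor of neutrophils, had 10.9 there against 5.33 to 5.69. Mmp9, of the same list, was lowest there, at 10.0 against 10.6 to 12.5. Monocyte markers other than Ly6c2, 11 in all, summed to 240 and 317 in WT and 316 and 263 in Lf-/- mice. Ace carried most of each sum, with 155 and 203 in WT and 224 and 196 in Lf-/- mice. Of the 11 markers 9 lay lower and 2 higher, and 0 were free of overlap (against 17.5% lower and 18.5% higher of all genes). The lowest value was in Lf-/- mouse 2 for 6 of the 11, against 34.4% of all genes tested. Alveolar macrophage markers were lower in 11 of 12. In Lf-/- mouse 2, 11 of 12 were lowest, against 34.4% of all genes tested, and Cybb, Itgam and Arg1 were lowest there too. Interstitial macrophage markers were lower in 10 of 10 and summed to 554 and 580 in WT and 482 and 297 in Lf-/- mice. Dendritic cell markers summed to 34.6 and 34.4 against 36.8 and 21.1, and natural killer markers to 34.3 and 23.6 against 23.1 and 12.7. T cell markers were lower in 8 of 8 tested and B cell markers in 6 of 6. All tested genes of both lists were lowest in Lf-/- mouse 2, against 34.4% of all genes tested. Of the lists of eosinophil, mast and basophil, endothelial, epithelial, and mesothelial and fibroblast genes, 3 of 3, 0 of 8, 3 of 7 and 3 of 5 tested lay lower. All 8 endothelial genes thus lay higher, 5 of them without overlap (against 18.5% of all genes). The lower epithelial genes include Scgb1a1, listed at 0 in Lf-/- mouse 2. Over all cell type lists 99 distinct genes were tested, 72 lower and 27 higher, against 6435 lower and 6138 higher of all genes tested. By limma 0 passed, with 7 lower and 2 higher at an unadjusted p under 0.05, against 2.56% and 2.55% of all genes. None of these markers was at 0 in every library, and Epx, of eosinophils, was listed at 0 in both Lf-/- mice.

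**Figure D4:**
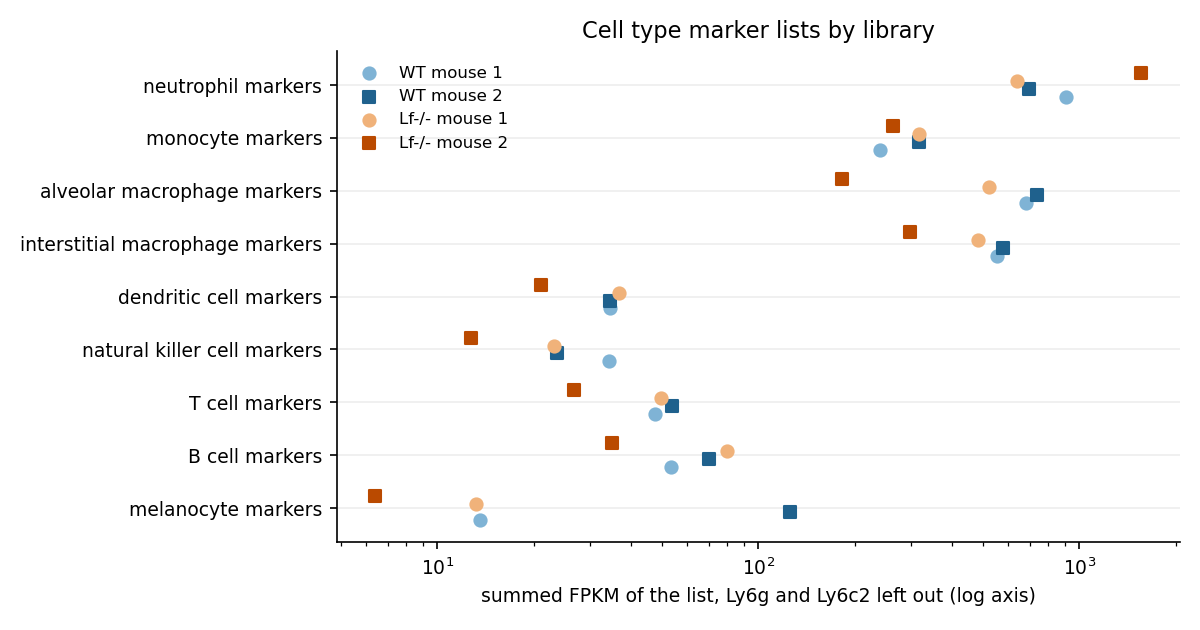
Summed FPKM (log axis) of 9 cell type marker lists in each library, with Ly6g and Ly6c2 left out of the sums. Lf-/- mouse 2 is highest for neutrophil markers (1561) and lowest for alveolar macrophage markers (182), and WT mouse 2 is highest for melanocyte markers (125). Without S100a8 and S100a9 the neutrophil sums are 249 and 213 in WT mice 1 and 2 and 200.5 and 269 in Lf-/- mice 1 and 2. Ace carries most of each monocyte sum. Car4, also in the endothelial list, makes up 98.0 of the alveolar macrophage sum of 182.

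Among regulators of suppressor cell growth and activation, 21 of 27 listed genes were tested, 12 lower and 9 higher (median -0.01). Of these 3 lower and 4 higher did not overlap, against 17.5% and 18.5% of all genes. By limma 0 passed, with 1 lower and 1 higher at an unadjusted p under 0.05, against 2.56% and 2.55% of all genes. Csf3r, the receptor for the granulocyte growth factor G-CSF, had 10.5 and 10.4 in WT and 12.8 and 16.9 in Lf-/- mice (log2 difference 0.45, SE 0.16, adjusted p = 0.89). Csf2rb, the chain shared by the receptors for GM-CSF, interleukin 3 and interleukin 5, had 14.4 and 15.1 against 10.8 and 5.999 (log2 difference -0.79, SE 0.27, adjusted p = 0.89). Cebpb, a transcription factor of emergency granulopoiesis, had 83.6 and 74.5 against 95.7 and 149, and Rela, a subunit of NF-kappaB, 44.1 and 42.4 against 48.6 and 49.5. Irf8, a transcription factor of monocytes and dendritic cells, was listed at 0 in all 4 libraries. The growth factor gene Csf3 and the inducers Il6, Il4 and Il13 stayed at 0.228 or less in every library. Irf8 and these 4 were named after their values were seen.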

How the data were processed

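Values are FPKM as deposited, 1 file per mouse, per the file headers. The submitters' processing notes name TopHat, Cufflinks, HTSeq, DESeq and GRCm38, with no role or version. No source used here states the annotation, the strand setting or whether libraries were scaled to each other. Each of the 4 libraries lists 21545 entries; 46 extra entries of 39 repeated symbols were summed, leaving 21499 genes. FPKM keeps no counts, so depth and counting error are unknown.

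log2(FPKM + 1) of the 12573 genes at an FPKM of 1 or more in 2 or more libraries was fitted on genotype with limma 3.58.1 in R 4.3.3 (eBayes with a mean-variance trend, 2 residual and 2.62 prior degrees of freedom), with Benjamini-Hochberg adjustment at 0.05. The step was tested on simulated data. Intervals use 95% and 4.62 degrees of freedom. The mice are separate animals, 2 per genotype. Genes, lists and tests were chosen with earlier results of these data known. All 10 members are named, then up to 4 genes of smallest p per pathway list, partners of a member, and a few markers per cell type; some genes of these lists are not reported here. Positions and shared windows come from GENCODE M21 (GRCm38), promoters from RefSeq. Alternatives were other pseudocounts, filters, scalings and prior variance, a replicate block, and leaving out each library. Tables and figures used Python 3.11.15, pandas 2.3.3, numpy 2.4.6 and matplotlib 3.10.9.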

Additional observations from a re-analysis of the deposited data

How the results depend on the processing

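None of the 9 tested genes passed under any alternative. Across 77 fits with another pseudocount, filter, scaling, prior variance or block, the smallest adjusted p was 0.456, and the direction changed once, for Ptgs2, at 0.054 after quantile normalization. Across 36 fits with 1 library left out, the smallest adjusted p was 0.426 and the direction changed 7 times. The log2 difference ranged from -0.67 to 0.062 for Arg1, -0.26 to 0.42 for Ly6g, -0.067 to 0.053 for Ptgs2 and -0.15 to 0.20 for Tgfb1. It kept its sign for Cybb (-2.27 to -0.41), Itgam (-0.76 to -0.31), Arg2 (-0.78 to -0.18), Ly6c2 (-0.25 to -0.09) and Nos2 (0.08 to 0.23). Over all genes 3 passed in the fit reported, and 2 of these were the Y-linked Eif2s3y and Ddx3y, higher in Lf-/- mice. With no filter 1 passed. With the mouse number as a replicate block 0 passed, and 153 higher and 265 lower genes had an unadjusted p under 0.05 by limma. Same-numbered mice deviated in opposite ways (correlation -0.336), and with the numbers crossed, chosen after seeing the data, 4 genes passed. Members at an FPKM of 1 or more in every library numbered 7, and 7 to 8 with a library left out.

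Having 2 mice per genotype and Y-linked transcripts that follow genotype limits every comparison. So do melanocyte transcripts in WT mouse 2, and lower alveolar macrophage markers with higher S100a8 and S100a9 in Lf-/- mouse 2. Low levels of Il10, Ly6g, Nos2 and Arg1 leave small changes undetectable, and no read counts are at hand to say how small.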

Other observations

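Ratios of FPKM within a library gave different pictures by gene pair. Csf3r per Itgam was 1.28 and 1.25 in WT and 1.98 and 3.76 in Lf-/- mice, without overlap. That follows from Csf3r lying higher and Itgam lower in Lf-/- mice, each already without overlap. Cybb per Csf1r, the receptor gene of monocytes and macrophages, was 0.587 and 0.896 in WT and 0.585 and 0.176 in Lf-/- mice, lowest in Lf-/- mouse 2. S100a8 per Ly6g, both of neutrophils, was 307 and 176 in WT and 297 and 284 in Lf-/- mice, with WT mouse 2 the lowest. Ptgs1 per Ptgs2 was 11.1 and 8.17 in WT and 6.82 and 5.19 in Lf-/- mice, without overlap. Ptgs1 by itself was already without overlap, and Ptgs2 was nearly level. These ratios were chosen after their values were seen and carry no test.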
